A study of Mus musculus with 6 samples.

Results

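Hfe, Erfe and Cp are 3 genes of systemic iron balance, described here in J774 cells, a mouse macrophage line, transfected with control siRNA (siControl) or NCOA4 siRNA (siNCOA4). They were found by gene name among the 55487 Ensembl mouse genes of the files, and all 3 were among the 13829 genes abundant enough to be tested. They were singled out because they differed between these same groups. Their values in this contrast are therefore given as a description, with no p-value, and where they are counted among genes past a threshold the count describes that choice and is no evidence of its own.

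NCOA4 is the cargo receptor that carries ferritin, the iron storage protein, to the lysosome. Each group held 3 samples of J774 cells, labelled as biological replicates, that had received siRNA by liposomes, so the control cells were transfected too, and the labels name no drug, iron load or red cell treatment for these libraries. Nothing further says whether the replicates were separate cultures, so p-values measure the spread between these samples only. The line is clone E, and 1 siRNA sequence against Ncoa4 was used, so an effect of the sequence and an effect of losing NCOA4 cannot be told apart. The time between transfection and RNA isolation was not given in the sources used here. Poly(A) RNA was sequenced, and the authors deposited TPM, a read number divided by gene length and scaled to the same sum in each library, so that levels can be compared between genes.

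Body iron is set by hepcidin, a liver hormone that removes the iron exporter ferroportin from the surface of macrophages, enterocytes and hepatocytes. HFE is a membrane protein related to MHC class I that binds beta-2 microglobulin and transferrin receptor 1, and in hepatocytes it takes part in sensing transferrin iron and in inducing hepcidin. Erythroferrone, the product of Erfe, is a secreted protein of the C1q/TNF-related family that erythroblasts release under erythropoietin and that lowers hepcidin by binding BMP ligands. Ceruloplasmin, the product of Cp, is a copper ferroxidase that oxidises iron leaving cells through ferroportin. It is made as a secreted plasma protein by the liver and as a membrane-anchored form in other cells, macrophages included.

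The genes lie on 3 chromosomes (GRCm38, GENCODE M21). Hfe (ENSMUSG00000006611) is on chromosome 13 (minus strand), bases 23702034 to 23710854, with 3572 exon bases and 4 annotated transcripts. Erfe (ENSMUSG00000047443) is on chromosome 1 (plus strand), bases 91366430 to 91374217, with 2815 exon bases and 2 transcripts. Cp (ENSMUSG00000003617) is on chromosome 3 (plus strand), bases 19957054 to 20009145, with 9566 exon bases and 16 transcripts, 8 of them protein-coding. The files give a single value per gene, so the secreted and membrane-anchored forms of ceruloplasmin could not be told apart.

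To show what sequence the 3 genes have at their starts, the 30 bases just before each start are printed 5′ to 3′ on the strand of the gene (RefSeq, GRCm38.p6), with capitals for a searched motif. They lie at chr13:23710855-23710884 (minus strand) for Hfe, chr1:91366400-91366429 for Erfe, and chr3:19957024-19957053 and chr3:19957219-19957248 for the first and the second RefSeq start of Cp (plus strand).
Hfe: gacttctgccactgcaacttgtttcttccc
Erfe: cgcgcgaggcgggggattcaagcgcgttat
Cp, first start: tgctgtgcatgtccaacacaaacagatgac
Cp, second start: ctaTTTATAAAattgcttgcttctggtttc

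The capitals before the second start of Cp mark TATAAA, which begins 25 bases before the start, joined with an overlapping match on the other strand. The windows of 250 bases before the starts were searched on both strands for 6 motifs. These were ACGTG (core of the hypoxia-inducible factor element), GGCGCC (core of the BMP-responsive element), TTCNNNGAA (STAT5), TTGCGNAA (C/EBP), an interferon regulatory factor (IRF) element and TATAAA. They occurred in 16.6%, 9.59%, 7.02%, 0.670%, 2.98% and 12.4% of 32851 such windows of mouse genes. The window of Erfe held ACGTG, beginning 243 bases before the start, and GGCGCC, beginning 108 bases before it. These stretches, with the motif in capitals, lie at chr1:91366180-91366209 and chr1:91366310-91366339 (plus strand).
Erfe, ACGTG: taagaagACGTGcagaatggtgcagtgggt
Erfe, GGCGCC: cggaccggatcgGGCGCCcgcctcctcagg

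No searched motif was found in the window of Hfe, and the window of the first start of Cp held none either. These windows of 250 bases before the start had a GC content of 65.6% for Erfe with 22 CpG, and of 42% for Hfe with 1 CpG. For Cp they had a GC content of 37.2% and 39.2%, with 2 CpG each. The GC content of Erfe was above that of 83.8% of the windows. A match describes the letters only, and binding was not measured.

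The 6 libraries held between 15732277 and 18554706 reads on genes, as rebuilt from TPM and gene length. Control replicate 1 stood apart from the other controls, with a chi-square per gene of 11.8 against each, while replicates 2 and 3 differed by 3.62 and the siNCOA4 replicates by 1.96 to 2.38. The target Ncoa4 was 21.6 ± 1.57 TPM with siControl and 9.04 ± 0.533 with siNCOA4 (SD, n = 3 each), and its processed copy Gm6768, which can share its reads, was 28.6 ± 0.958 and 11.4 ± 1.83 TPM. All 10 listed macrophage markers were tested, and their summed level was 8650 to 8841 TPM with siControl and 8981 to 9083 TPM with siNCOA4. Csf1r, Adgre1, Fcgr1 and Mertk were higher and Cd14 lower at an adjusted p under 0.05 by limma, and the part of this in the members' values was not tested. Of 10 hepatocyte markers 8 were at 0 in every library, Alb, Apoa1, Ttr and Hnf4a among them, with a summed level of at most 0.0433 TPM with siControl and 0.617 TPM with siNCOA4. Of 10 erythroblast markers 8 were at 0, among them Gata1, Alas2 and the globins, and the others, Klf1 and Epor, summed to 1.5 to 1.79 TPM with siControl and 0.967 to 2.11 TPM with siNCOA4. Of 8 skeletal muscle markers 3 were at 0, and the sums were 0.627 to 1.09 and 0.764 to 1.16 TPM.

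Hfe was the most abundant of the 3 genes and was higher after NCOA4 depletion. Its level was 5.51, 7.07 and 5.48 TPM in siControl replicates 1 to 3 and 11.4, 11.4 and 10.5 TPM in siNCOA4 replicates 1 to 3. The groups did not overlap, and the lowest siNCOA4 library stood at 1.48 times the highest control. The values rest on 113, 153 and 102 reads with siControl and on 236, 221 and 226 reads with siNCOA4. The mean was 6.02 ± 0.909 TPM with siControl and 11.1 ± 0.509 TPM with siNCOA4 (SD, n = 3 each), 1.84-fold higher. On the log2(TPM + 0.5) scale the difference was 0.84 (standard error 0.110, 95% interval 0.58 to 1.10). In bulk RNA, a change in the share of cells that hold a transcript and a change in the amount per cell cannot be told apart.

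Erfe, whose product is best known from erythroblasts, was detected in every library and was lower after NCOA4 depletion. Its level was 4.33, 4.22 and 3.75 TPM in siControl replicates 1 to 3 and 2.2, 2.02 and 2.06 TPM in siNCOA4 replicates 1 to 3. The lowest control stood at 1.7 times the highest siNCOA4 library. The reads behind these values were 70, 72 and 55 with siControl and 36, 31 and 35 with siNCOA4. The mean was 4.10 ± 0.310 TPM with siControl and 2.09 ± 0.0950 TPM with siNCOA4 (SD, n = 3 each), which is 51.1% of the control level. The log2 difference was -0.82 (standard error 0.115, 95% interval -1.10 to -0.55). With limma-voom on the rebuilt reads it was -0.95 with a larger standard error of 0.188. The depth was the lowest of the 3 genes with siNCOA4. The exact Poisson interval of the deepest siNCOA4 value reached up to 3.05 TPM, and that of the shallowest control down to 2.82 TPM, so single libraries overlapped in counting error although their values did not.

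Cp was the least abundant of the 3 genes in control cells and had the largest fold. Its level was 0.928, 0.759 and 0.481 TPM in siControl replicates 1 to 3 and 1.87, 2.15 and 1.78 TPM in siNCOA4 replicates 1 to 3. The groups did not overlap, and the lowest siNCOA4 library stood at 1.92 times the highest control. These values rest on 51, 44 and 24 reads with siControl and on 104, 112 and 103 reads with siNCOA4. The mean was 0.723 ± 0.226 TPM with siControl and 1.94 ± 0.190 TPM with siNCOA4 (SD, n = 3 each), 2.68-fold higher. The log2 difference was 1.01 (standard error 0.211, 95% interval 0.51 to 1.51). The pseudocount of 0.5 is close to the control level of Cp and lowers this value, and the ratio of the mean TPM gives 1.42 on the log2 scale.

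**Figure D1:**
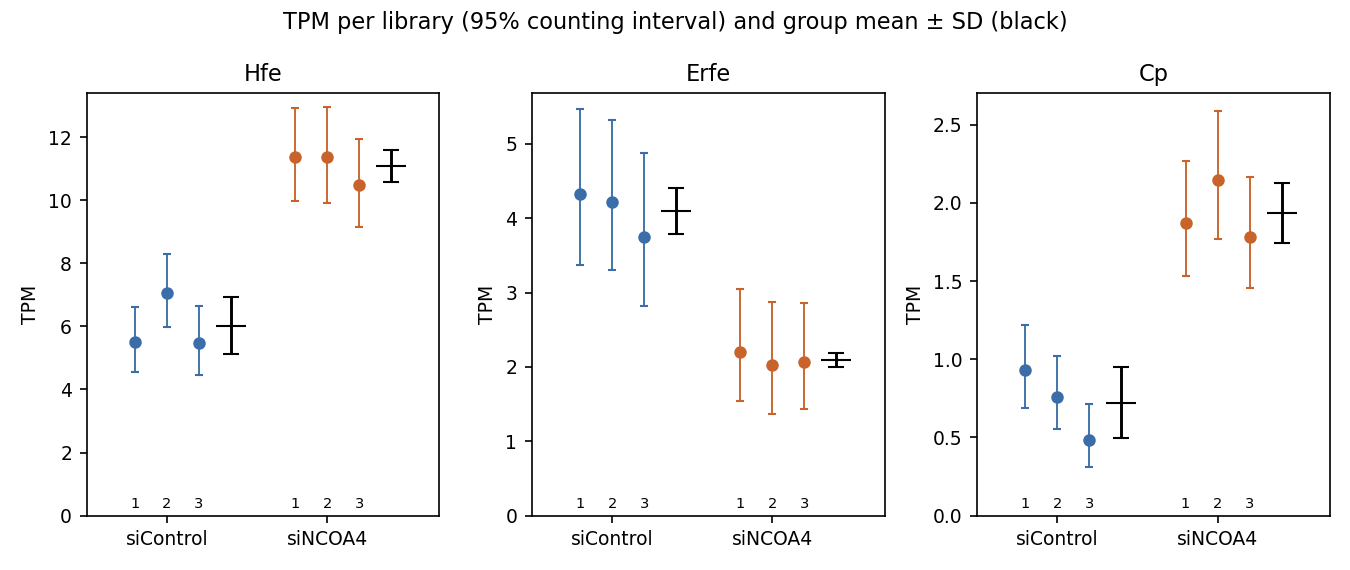
Level of Hfe, Erfe and Cp in TPM (y axis, from 0, with its own scale for each gene) in siControl (blue) and siNCOA4 (orange) libraries, with the replicate number at the foot, an exact 95% Poisson interval of the reads on each point, and the group mean ± SD in black. Hfe goes from a mean of 6.02 to 11.1 TPM, Erfe from 4.10 to 2.09 and Cp from 0.723 to 1.94, and in no panel do the points of the groups overlap.

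The spread between replicates was not the same for the 3 genes. The controls of Cp varied most, with a coefficient of variation of 31.2% where counting alone gives 15.9%, and their highest value was 1.93 times their lowest. The controls of Hfe varied by 15.1% against 9.03% from counting. The controls of Erfe varied by 7.55%, less than the 12.3% that counting gives. With siNCOA4 the values were 4.60% for Hfe, 4.54% for Erfe and 9.84% for Cp, against 6.63%, 17.1% and 9.70% from counting. Without control replicate 1, the library that stood apart, the log2 difference was 0.78 for Hfe, -0.79 for Erfe and 1.13 for Cp.

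Read per gene length, the order of the levels was Hfe, Erfe, Cp in 5 of 6 libraries. In siNCOA4 replicate 2 Cp was above Erfe. The level of Hfe was 1.27 to 1.67 times that of Erfe with siControl and 5.09 to 5.62 times with siNCOA4. The level of Erfe was 4.66 to 7.79 times that of Cp with siControl and 0.941 to 1.18 times with siNCOA4, where these neighbours in the order did not differ beyond their spread. Among all tested genes, Hfe stood at percentile 30.4 of the mean level with siControl and 40.1 with siNCOA4. Erfe stood at 25.1 and 16.5, and Cp at 5.10 and 15.5.

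Among all 13829 genes, 163 (1.18%) had an adjusted p under 0.05 by limma and a fold above 1.5, 119 higher (0.861%) and 44 lower (0.318%) with siNCOA4. The split was 105 higher and 68 lower with median centring and 99 and 61 with quantile normalization. All 3 members are among the 163, having been chosen for their difference. Groups that do not overlap, as in all 3 members, were found in 28.4% of tested genes, 16.6% higher and 11.8% lower with siNCOA4. Many genes moved further, since by log2 difference Cp ranked 170th and Hfe 279th among the higher genes and Erfe 134th among the lower ones. How many members pass both thresholds depends on single libraries and settings. It was 2 (Hfe and Erfe) without a filter on low values or with quantile normalization. It was 3 without control replicate 1 and 2 (Hfe and Erfe) without control replicate 2 or 3. It was 1 (Hfe) without siNCOA4 replicate 3 and 0 without siNCOA4 replicate 1 or 2. Calls among all tested genes fell too, from 163 to 93, 95 and 98 without siNCOA4 replicate 1, 2 and 3. They were 174, 155 and 135 without control replicate 1, 2 and 3. The log2 difference of Hfe stayed within 0.78 to 0.95 over the 6 fits that leave out a library. That of Erfe stayed within -0.88 to -0.79 and that of Cp within 0.86 to 1.13.

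**Figure D2:**
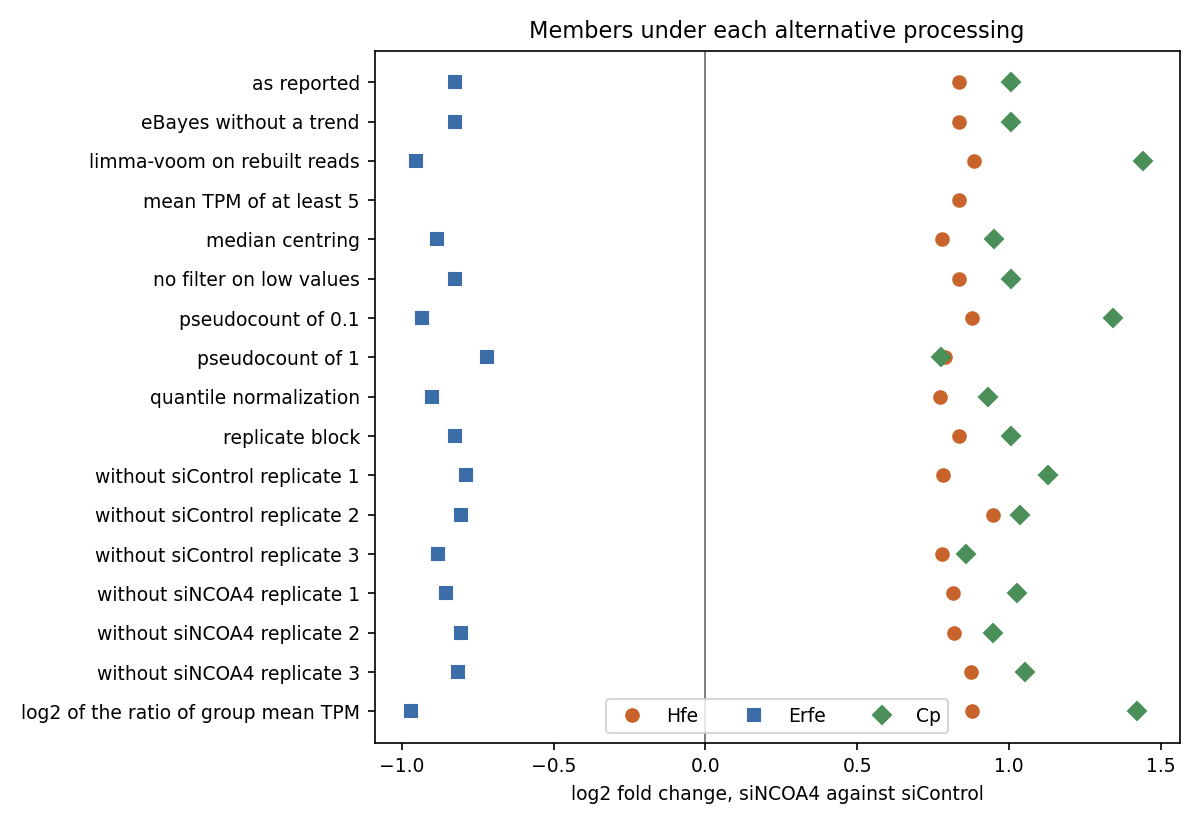
Log2 fold change of siNCOA4 against siControl (x axis) for Hfe (orange circles), Erfe (blue squares) and Cp (green diamonds) as reported and under each alternative processing (y axis). Hfe and Cp stay above 0 and Erfe below 0 in every setting that gives a value, and Cp spreads most, from 0.78 to 1.44.

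The libraries were made with a stranded kit, but whether the counting of reads used the strand was not given. The neighbours and overlapping genes of the members were therefore read beside them. Erfe shares 357 exon bases, 12.7% of its exons, with Ilkap, a phosphatase gene on the opposite strand. Ilkap was 22.5 ± 0.806 TPM with siControl and 24.1 ± 0.476 with siNCOA4 (SD, n = 3 each), a log2 difference of 0.10 (adjusted p = 0.320 by limma). It had 678 to 825 reads per library, where Erfe had 31 to 72. How reads on the shared bases were assigned is not known, so the level of Erfe may be uncertain. Cp shares 108 exon bases, 1.13% of its exons, with Hps3 on the opposite strand, a gene of lysosome-related organelle biogenesis. Hps3 was 9.62 ± 1.20 TPM with siControl and 12.7 ± 0.469 with siNCOA4 (SD, n = 3 each), a log2 difference of 0.39 (adjusted p = 0.0719 by limma, 0.00447 to 0.215 over the alternatives). Parts of the Hfe exons, of up to 398 bases, are at least 95% identical to transcripts of 56 other genes, so a share of its reads may be uncertain.

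The nearest tested protein-coding genes on either side of Hfe, and those at lower coordinates beside Erfe and Cp, did not pass the test. Beside Hfe these were the histone genes Hist1h2bc, 9126 bases away, with a log2 difference of -0.20 (adjusted p = 0.320 by limma), and Hist1h1c, 27954 bases away, with 0.09 (adjusted p = 0.645 by limma). Espnl, 18124 bases from Erfe, had -0.03 (adjusted p = 0.843 by limma). Pde7a, 645732 bases from Cp, had -0.04 (adjusted p = 0.858 by limma). At higher coordinates the nearest to Erfe and Cp were the overlapping Ilkap and Hps3, and genes beyond these were not examined. The signs of Hist1h1c, Espnl and Pde7a turn with the settings.

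To place the members in their pathway, 97 other genes were listed by role, from hepcidin and its ligands to the copper supply of ceruloplasmin. Of these, 26 were at 0 in every library and 54 were abundant enough to be tested. Among the 54, 5 had an adjusted p under 0.05 by limma (9.26%, where all tested genes give 5.42%), and 0 also had a fold above 1.5. These 5 were 2 higher and 3 lower with siNCOA4, where all tested genes give 3.11% higher and 2.31% lower. At an unadjusted p under 0.05 there were 17 (31.5%), beside 21.6% of all tested genes. The log2 difference was above 0 in 32 and below 0 in 22, with a median of 0.05, beside a median of 0.03 over all tested genes. The number that passed was 7 without control replicate 1, 2 without control replicate 3, 1 without siNCOA4 replicate 1 or 2, and 2 without siNCOA4 replicate 3, and 13 with limma-voom on the rebuilt reads.

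Of 8 genes of hepcidin, its BMP ligands and related hormones and carriers, 2 were tested and 0 passed, and the other 6 had at most 8 reads in any library. Hamp, the hepcidin gene, had 0, 1 and 1 reads in the control libraries and 0 reads in each siNCOA4 library. Bmp6, the main BMP ligand of iron sensing, and Hamp2, Bmp4 and Epo had 0 reads in every library, and Bmp2 had 3, 0 and 3 reads with siControl and 2, 3 and 8 with siNCOA4. The tested genes were Gdf15, a stress-induced TGF-beta relative, at 8.85 ± 1.5 and 9.74 ± 0.0263 TPM (SD, n = 3 each; adjusted p = 0.546 by limma), and Trf, the transferrin gene, at 122 ± 10.1 and 141 ± 3.17 TPM (adjusted p = 0.124).

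Of 11 partners of HFE and receptors of the hepcidin pathway, BMP receptors among them, 8 were tested and 0 passed. B2m, which encodes the light chain that HFE needs to reach the cell surface, was 2021 ± 284 TPM with siControl and 2055 ± 63.9 with siNCOA4 (SD, n = 3 each). Its log2 difference was 0.03 (adjusted p = 0.882 by limma), and the sign turns with median centring and without control replicate 2 or 3. Tfrc, which encodes transferrin receptor 1, was 112.7 ± 18.0 TPM with siControl and 157.3 ± 5.51 with siNCOA4 (SD, n = 3 each). Its groups did not overlap, with a log2 difference of 0.49, and its adjusted p was 0.0549 by limma, between 0.00107 and 0.188 over the alternatives. Tfr2, the receptor that pairs with HFE in hepatocytes, had 1 read in siNCOA4 replicate 1 and 0 in the other libraries, and Hjv, the BMP co-receptor hemojuvelin, had 0 reads in all 6.

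Of 10 SMAD genes and BMP targets, 8 were tested and 0 passed. Id1, a direct BMP target, was 33.4 ± 5.96 TPM with siControl and 22.8 ± 1.94 with siNCOA4 (SD, n = 3 each), with groups that did not overlap. Its log2 difference was -0.53 and its adjusted p 0.0721 by limma, between 0.0222 and 0.227 over the alternatives. The inhibitory SMADs had log2 differences of 0.03 for Smad6 and -0.10 for Smad7 (adjusted p = 0.943 and 0.776 by limma), and both signs turn with the settings. Of 9 proteases and antagonists of this pathway 2 were tested, Furin and Fkbp1a, and 0 passed. Tmprss6, the protease that cleaves hemojuvelin, had 1 read in control replicate 2 and 0 elsewhere.

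Of 8 genes of the erythropoietin receptor and its STAT5 signal, the route that induces Erfe in erythroblasts, 4 were tested and 0 passed. Epor, the receptor, had 1, 0 and 0 reads with siControl and 1, 4 and 2 with siNCOA4. Stat5a was 18.6 ± 0.141 TPM with siControl and 21.1 ± 0.345 with siNCOA4 (SD, n = 3 each), a log2 difference of 0.18 (adjusted p = 0.0832 by limma). Stat5b had a log2 difference of 0.07 (adjusted p = 0.664 by limma). Among 14 relatives of erythroferrone in the C1q/TNF family 8 were at 0 in every library. The only tested relative, C1qtnf12, was 8.98 ± 1.45 and 8.09 ± 1.22 TPM (SD, n = 3 each; adjusted p = 0.638 by limma).

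Genes of iron export and ferroxidases, the partners of ceruloplasmin, numbered 8, of which 3 were tested, 1 rose and 1 fell. Slc40a1, the ferroportin gene, was 13.5 ± 0.859 TPM with siControl and 18.5 ± 0.264 with siNCOA4 (SD, n = 3 each). Its log2 difference was 0.45 (standard error 0.0630, adjusted p = 0.0133 by limma). Without siNCOA4 replicate 1, 2 or 3 the adjusted p was 0.0723, 0.0742 and 0.0651. Fth1, the ferritin heavy chain and itself a ferroxidase, fell to 2597 ± 6.77 TPM from 3053 ± 56.9 TPM with siControl (SD, n = 3 each), with a log2 difference of -0.23 (standard error 0.0413, adjusted p = 0.0257 by limma). Leaving out control replicate 2 or 3 gave it an adjusted p of 0.0570 or 0.0626, and leaving out siNCOA4 replicate 1, 2 or 3 gave 0.135, 0.145 or 0.130. Heph, the membrane-bound relative of ceruloplasmin, had 0, 0 and 1 reads with siControl and 1, 3 and 0 with siNCOA4, and Hephl1 had 0 reads in every library. Cp was thus the only multicopper ferroxidase gene of this list with more than 3 reads in a library.

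Ceruloplasmin receives its copper in the secretory pathway, and of 12 genes of copper supply 10 were tested and 0 passed. Slc31a1, the copper importer, had a log2 difference of 0.09 (adjusted p = 0.368 by limma). Atp7a, the pump that loads copper into the secretory pathway, was 13.1 ± 2.14 TPM with siControl and 14.04 ± 0.880 with siNCOA4 (SD, n = 3 each; adjusted p = 0.651 by limma, with a sign that turns with the settings). Atp7b, its liver counterpart, had 8, 4 and 2 reads with siControl and 2, 5 and 2 with siNCOA4.

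Of 17 genes known to act on Cp transcription or translation, 16 were tested, 1 rose and 2 fell. Irf1, an interferon-induced transcription factor, rose to 22.2 ± 1.47 TPM from 15.1 ± 0.472 TPM with siControl (SD, n = 3 each), with a log2 difference of 0.54 (standard error 0.0645, adjusted p = 0.00776 by limma), and passed whichever single library was left out, at 0.0148 to 0.0488. Hif1a, the hypoxia-inducible factor subunit, fell from 73.6 ± 4.45 to 59.1 ± 3.17 TPM, a log2 difference of -0.31 (adjusted p = 0.0361 by limma). It missed the threshold whichever library was left out, with an adjusted p of 0.0504 without control replicate 3 to 0.124 without siNCOA4 replicate 3. Egln1, the iron-dependent prolyl hydroxylase that marks HIF for degradation, fell from 124.7 ± 6.23 to 103.0 ± 1.29 TPM, a log2 difference of -0.27 (adjusted p = 0.0230 by limma). Leaving out control replicate 2 or 3 gave it an adjusted p of 0.0597 or 0.0593, and leaving out siNCOA4 replicate 1, 2 or 3 gave 0.0964, 0.0982 or 0.106. Eprs, Syncrip and Rpl13a were listed for a part in silencing Cp translation after interferon, and which of them act so in mouse macrophages was not examined. They had log2 differences of -0.09, -0.02 and 0.02 (adjusted p = 0.320, 0.850 and 0.933 by limma), and the signs of Syncrip and Rpl13a turn with the settings.

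**Figure D3:**
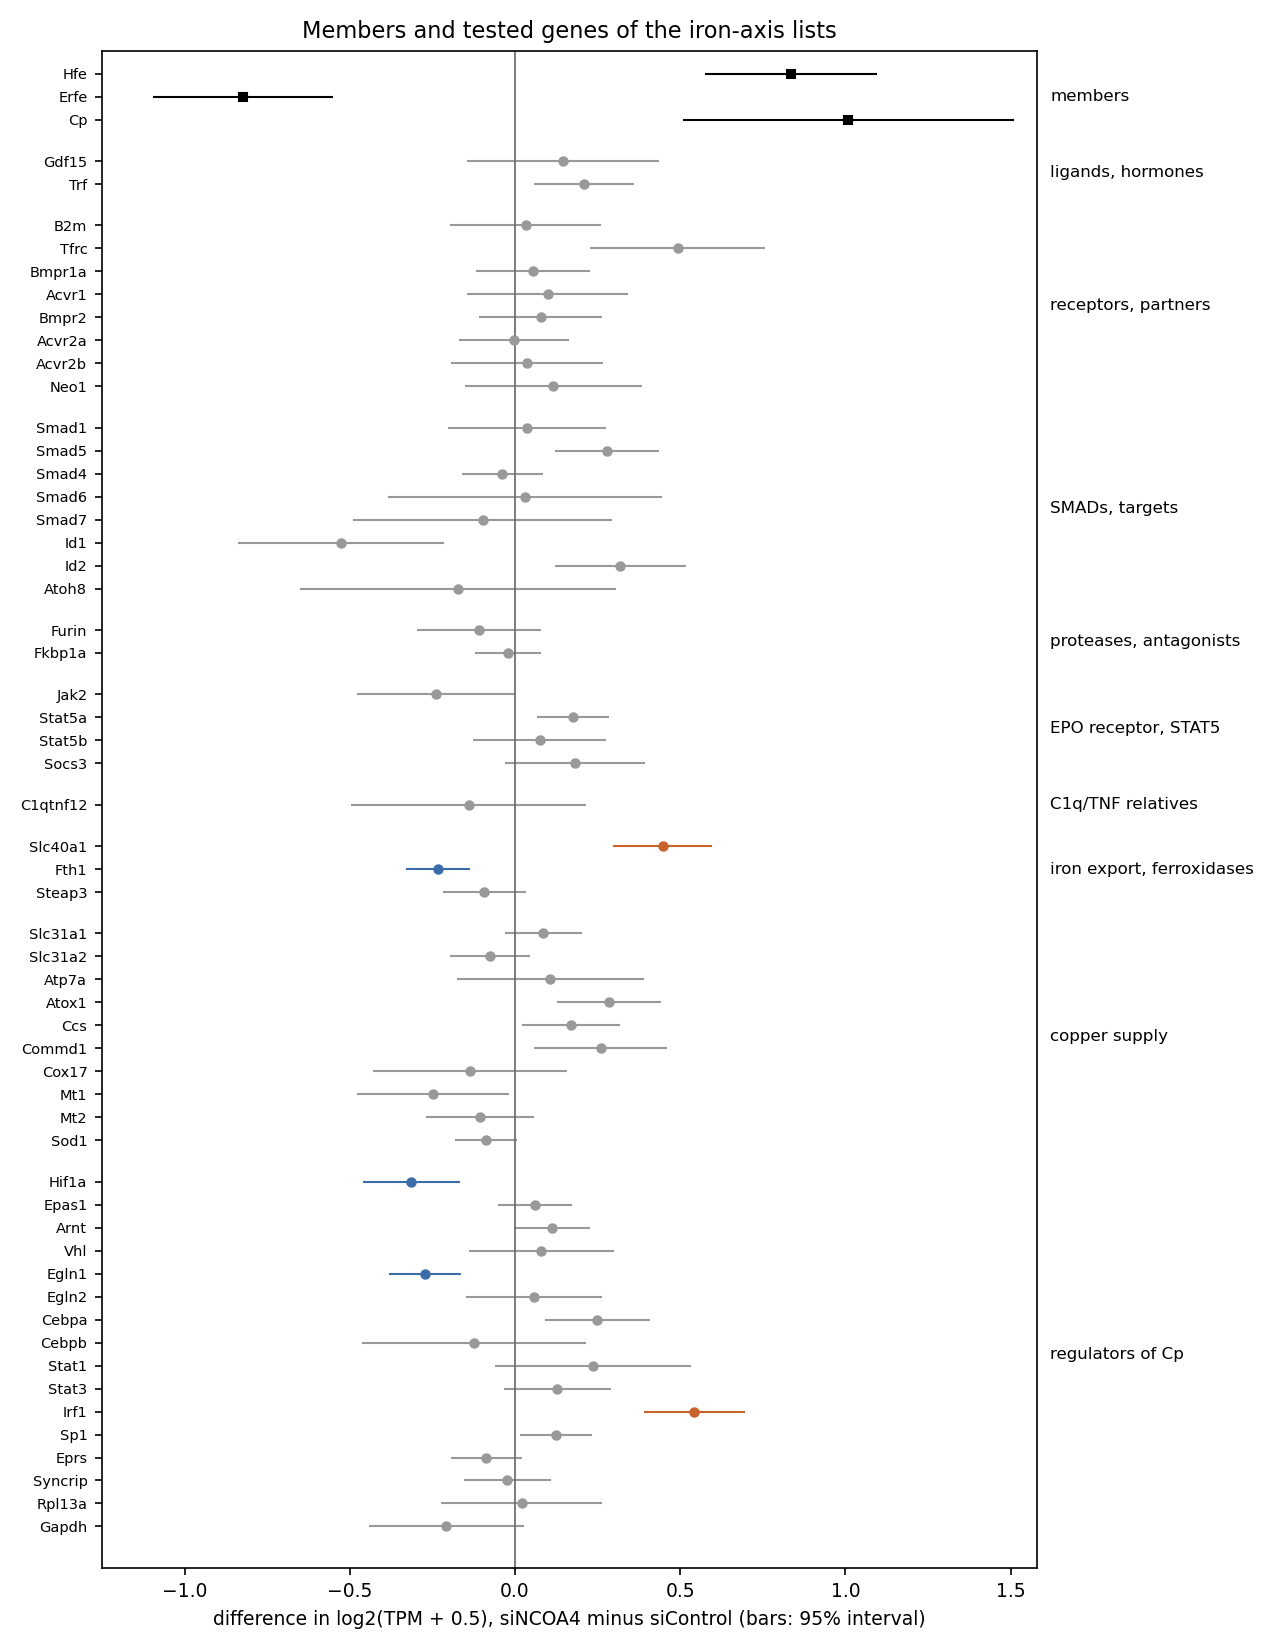
Difference in log2(TPM + 0.5), siNCOA4 minus siControl (x axis), with its 95% interval for Hfe, Erfe and Cp (black squares) and for the 54 tested genes of the role lists (y axis, grouped by role). Orange and blue circles mark the 2 genes higher and 3 lower at an adjusted p under 0.05, grey circles did not pass, and the members lie further from 0 than any listed gene, having been chosen for their difference.

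The genes with the profile most like each member were sought among 10828 tested protein-coding genes, by the root mean square difference over the 6 libraries of log2(TPM + 0.5) minus the control mean. This measure uses the same contrast, so it describes the profiles only. Nearest to Hfe were Mrc1 (0.0801), the mannose receptor of macrophages, Ifitm1 (0.0817), Tlr8 (0.0846), an endosomal RNA sensor, P2ry12 (0.0895), a purinergic receptor, and Trp53inp1 (0.0919). Ifitm1 rests on 5, 6 and 4 reads with siControl and 12, 11 and 10 with siNCOA4. Its log2 difference was 0.61 to 1.05 over the alternatives, so its place here is uncertain. Nearest to Erfe were Fam49b (0.0956), Odc1 (0.1), the first enzyme of polyamine synthesis, Ero1lb (0.107), Rgs1 (0.108) and Basp1 (0.113). Nearest to Cp was Filip1l (0.0945), followed at a distance by Hacd4 (0.160), P2ry13 (0.161), Serpinb8 (0.168) and the chemokine gene Ccl24 (0.172). Cp was also the member with the widest spread among its controls.

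**Figure D4:**
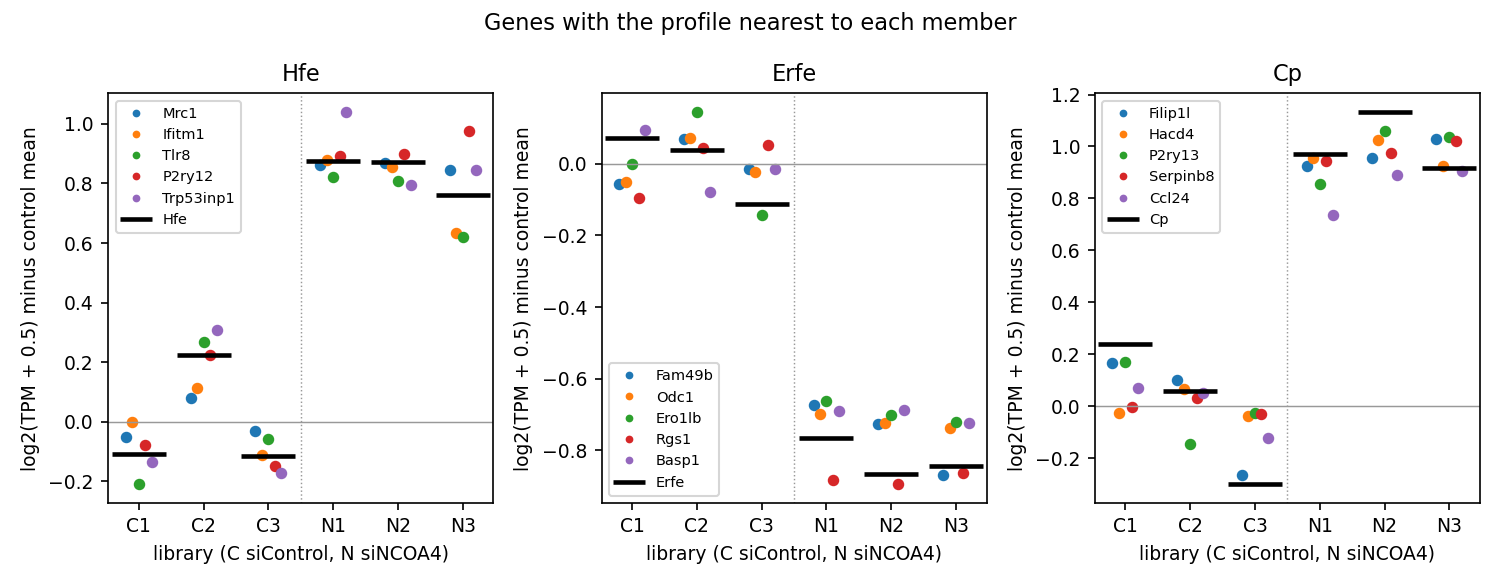
Profile of each member (black bars) and of its 5 nearest genes (coloured points, shifted sideways for sight) as log2(TPM + 0.5) minus the control mean (y axis) in siControl libraries C1 to C3 and siNCOA4 libraries N1 to N3 (x axis). In each panel the points of the siNCOA4 libraries lie on the same side of 0 as the member, and the controls of Cp spread more widely than those of its near genes.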

How the data were processed

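RNA-seq of 6 libraries of J774 cells, 3 with control siRNA and 3 with NCOA4 siRNA, was analysed, with groups taken from the labels. The authors deposited TPM per Ensembl gene. The submitters' processing notes name Trimmomatic 0.33, FastQC, HISAT2 2.1.0, featureCounts, edgeR and mm10, and their settings for strand and multi-mapped reads are not given in the sources used here. Of 55487 gene IDs, 55227 were named from GENCODE M21. Reads were rebuilt from TPM and exon length, and 20759 of 21096 genes above 0 (98.4%) came out whole in all libraries within 0.01 reads. Intervals from reads are exact Poisson intervals and cover counting error only.

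Because the values are TPM and no counts, limma 3.58.1 (R 4.3.3) was fitted to log2(TPM + 0.5) over 13829 genes, those averaging at least 0.5 TPM, with a trend, no block and Benjamini-Hochberg adjustment. The pseudocount shrinks the fold change of weakly expressed genes. Calls needed both an adjusted p below 0.05 and a fold above 1.5. The fit was tested on simulated reads with the same spread beyond counting for every gene and no library that stood apart. In this the simulation differs from these data, where control replicate 1 stood apart. Tables and figures were made with Python 3.11.15. The members and the gene lists were chosen with earlier results of these data known. Named are the members, Ncoa4 and its copy, listed genes with an adjusted p under 0.05, a set of listed genes fixed by role, the nearest protein-coding genes and the 5 genes of nearest profile per member. Other names (Trf, Bmp4, Hamp2, Epo, Furin, Fkbp1a, Tmprss6, C1qtnf12, Hephl1 the markers and the overlapping genes) were added after their values were seen. Alternatives were limma-voom on rebuilt reads, pseudocounts of 0.1 and 1, no filter, a mean of at least 5 TPM, median centring, quantile normalization, no trend, the ratio of means, a replicate block and leaving out each library.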

Additional observations from a re-analysis of the deposited data

How the results depend on the processing

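The direction of Hfe, Erfe and Cp was kept under every alternative that gave a value, and a mean of at least 5 TPM gave none for Erfe and Cp. For Hfe the log2 fold change was 0.77 to 0.95. For Erfe it was -0.95 with limma-voom, -0.93 and -0.72 with pseudocounts of 0.1 and 1, and -0.97 as the ratio of means. For Cp it was 1.44, 1.34, 0.78 and 1.42 in the same order, which follows from a pseudocount near its control level. With single libraries left out the ranges were 0.78 to 0.95 for Hfe, -0.88 to -0.79 for Erfe and 0.86 to 1.13 for Cp. The genes called among all tested numbered 163 as reported and 93 to 174 with single libraries left out. Those with an adjusted p under 0.05 numbered 750 as reported, 404 without a trend, 1493 with limma-voom, 499 without a filter, and 174 to 844 with single libraries left out. Listed genes with an adjusted p under 0.05 numbered 5 as reported, 2 without a trend, 13 with limma-voom, 9 at a mean of at least 5 TPM, 7 with median centring, 7 with quantile normalization, 3 without a filter, and 1 to 7 with single libraries left out. Deviations of same-numbered libraries from their group means had correlations of 0.03, -0.02 and 0.02 over genes. The labels do not say whether these libraries were paired. With 3 libraries per group, each centred on its own group mean, the correlations cannot settle it. With the replicate block 87 genes were called, 161 had an adjusted p under 0.05, 0 listed genes did, and 1 of the 3 members (Hfe) stayed among the genes called, while Erfe and Cp did not. Of 610 values of 41 other named genes over the alternatives, 47 lost and 13 gained the threshold, and 18 values near 0 changed sign. Depth limits Cp and Erfe most, with 24 reads in the shallowest control of Cp and 31 in the shallowest siNCOA4 library of Erfe.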
